A study of Homo sapiens with 12 samples.

Results

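The regions described here are 905 solitary wide enhancers of HepG2, a human liver cancer cell line. They are H3K27ac peaks 1500 bp or wider that overlapped an H3K4me1 peak, overlapped no H3K4me3 peak and had no other H3K27ac peak within 12.5 kb of either edge. They were chosen by these measured values (width, overlap with the other lists and the gap to the next H3K27ac peak), so those values are given as a description only. They made up 1.36% of the 66513 H3K27ac peaks on chromosomes 1 to 22 and X, and covered 2.19 Mb. Untreated HepG2 cells were profiled by chromatin immunoprecipitation and sequencing, with 3 libraries each for H3K27ac, H3K4me1 and H3K4me3 and 3 control libraries, which the titles call input and the antibody label an anti-mouse IgG. All 12 libraries came from this 1 cell line, and no label says whether they were separate cultures. The values are 3 deposited peak lists, 1 for each mark and each pooled over its libraries. They hold no replicate values, so no statistical test was made, and the depth behind the peaks is unknown. The spread of a value over the 23 chromosomes is given instead. It reflects how even a difference was along the genome and also the few members on some chromosomes (6 on chromosome 21). It is not a replicate error, and a difference smaller than this spread is not shown to be absent.

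An enhancer is a stretch of DNA that binds transcription factors and raises the transcription of a gene that can lie far away. Its flanking nucleosomes carry H3K4me1 whether or not it is in use, while H3K27ac, placed by the acetyltransferases p300 and CBP, marks the enhancers in use, and H3K4me3 sits mainly at promoters. In liver cells many active enhancers bind factors such as HNF4A, FOXA and CEBP. Wide acetylated enhancers often lie in clusters, and dense clusters are known as super-enhancers. Wide enhancers that stand alone are the other arrangement. The sequence of these regions and the genes around them were not analysed here, since no genome or gene annotation of the build of the lists (hg19) was used.

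Of the 66513 H3K27ac peaks, 20475 (30.8%) were 1500 bp or wider. H3K4me1 without H3K4me3 marked 8149 of these, which are called wide enhancers below, and 905 of the 8149 were solitary (11.1%, 95% Wilson interval 10.4 to 11.8). The other 7244 had another H3K27ac peak within 12.5 kb and are called clustered wide enhancers. Their nearer neighbour lay a median of 484 bp away (interquartile range 162 to 2584.5) and was 613 bp wide at the median. The name thus does not mean a dense cluster of wide peaks. The solitary share was 9.89% (9.56 to 10.2) among the 31620 enhancer-like peaks under 1500 bp, and 19.6% (18.9 to 20.3) among the 12294 wide peaks that overlapped H3K4me3. At this limit of 1500 bp, wide enhancers were solitary slightly more often than narrow ones. With a limit of 2000 bp their share was 9.44%, below the 10.1% of all enhancer-like peaks, so this order depended on the limit. At 1500 bp they were solitary less often than the wide peaks with H3K4me3, which are called promoter-like below. These shares describe values that the rule used. All of these intervals cover counting error only and treat neighbouring peaks as independent.

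The lowest −log10 q-value among the 905 members was 8.74. Their median width was 2113 bp, with an interquartile range of 1756 to 2725 and a maximum of 11988. The median H3K27ac signal value, the authors' measure of peak strength, was 7.67, with an interquartile range of 5.59 to 11.0 and extremes of 2.10 and 57.3. Wider members had higher signal values (Spearman's rho 0.59 over 905 regions of 1 list, a description). The H3K27ac summit lay near the middle, at a median of 50.3% of the width, and a median of 234 bp from the midpoint.

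**Figure D1:**
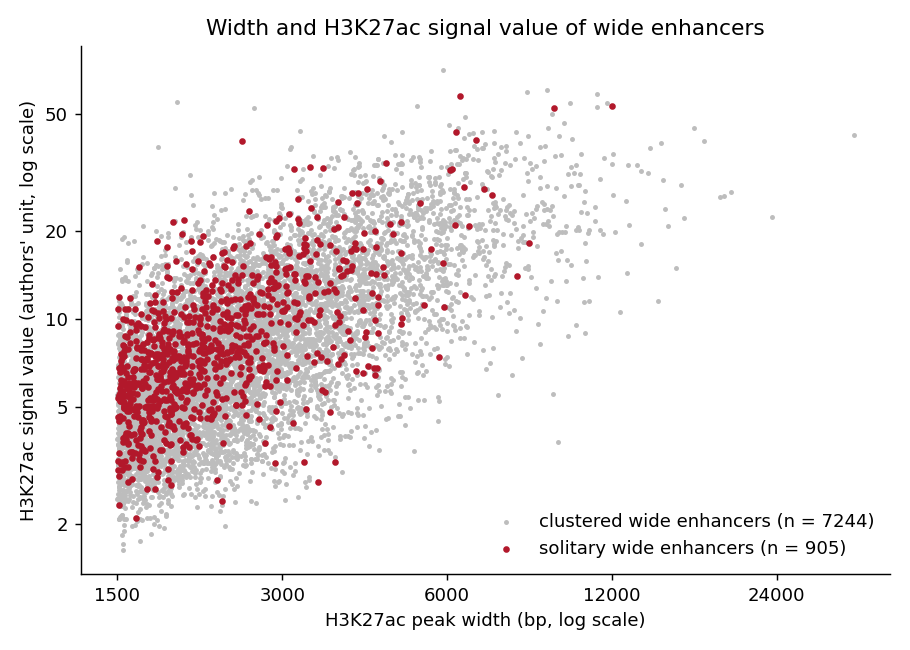
Width (bp, log scale) against H3K27ac signal value (authors' unit, log scale) of each solitary wide enhancer (red, n = 905) and each clustered wide enhancer (grey, n = 7244). The red points lie within the grey cloud; their largest width is 11988 bp, against 33165 bp among the clustered.

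Among the 5 members with the highest signal values, no nearer H3K27ac neighbour overlapped H3K4me3. The strongest lay on chromosome 3 from 148316572 to 148322903 (band 3q24), 6332 bp wide, with a signal value of 57.3. Its nearer H3K27ac neighbour was 63.6 kb away and had a signal value of 2.54, and only 9 other H3K27ac peaks lay within 500 kb of its summit. The next lay on chromosome 1 from 20244794 to 20256781 (1p36.13) with a value of 53.3, and at 11988 bp it was also the widest member. The member on chromosome 11 from 13155940 to 13165334 (11p15.2) had a value of 52.2, a width of 9395 bp and the highest −log10 p-value among these 5, 4004. The member on chromosome X from 87812423 to 87818642 (Xq21.31) had a value of 43.2 and only 5 other H3K27ac peaks within 500 kb. The fifth, on chromosome 3 from 188460678 to 188467452 (3q28), had a value of 40.6 and lay 273.0 kb from the nearest H3K4me3 peak.

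The other 3 of the 5 widest members had lower signal values than these. They lay on chromosome 6 from 132296517 to 132304980 (6q23.2; 8464 bp, signal value 18.1), chromosome 11 from 95743510 to 95751569 (11q21; 8060 bp, 14.0) and chromosome 18 from 13174054 to 13181305 (18p11.21; 7252 bp, 26.4). At the other end, the weakest member, on chromosome 10 from 114533476 to 114535099 (10q25.2), was 1624 bp wide with a signal value of 2.10, and its strongest H3K4me1 peak, at 7.27, was above the median of the members.

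The thresholds cut through a continuous range. The 2 members nearest the width limit were both 1501 bp wide, with H3K27ac signal values of 4.62 (17p13.3) and 3.06 (9q22.31). The 2 solitary enhancers just below it were 1499 and 1498 bp wide, with values of 5.71 (2q31.1) and 3.38 (20q12). The 2 members nearest the gap limit had neighbours at 12501 and 12512 bp and values of 20.9 (12q24.21) and 6.80 (1p13.2). Just outside it, wide enhancers with neighbours at 12490 and 12483 bp had values of 33.6 (15q22.31) and 10.7 (1q41).

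H3K27ac strength was alike in solitary and clustered wide enhancers, before width is considered. The median signal value was 7.67 in solitary and 7.67 in clustered wide enhancers, with interquartile ranges of 5.59 to 11.0 and 5.13 to 12.2. Solitary minus clustered, the median log2 signal value on a chromosome differed by a mean of -0.00038 (SD 0.18 over 23 chromosomes, positive on 10). Solitary members were narrower, with a median of 2113 bp against 2398 bp, and the difference in median log2 width was -0.18 (SD 0.11), negative on all but 1 of 23 chromosomes. A minimum width was part of the rule for both groups.

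At like width the medians of the 2 groups were not equal, and the direction was not the same in each class of width. Among peaks of 1500 to below 2000 bp the median signal value was 5.97 in 396 solitary and 5.19 in 2359 clustered enhancers. From 2000 to below 2500 bp it was 8.02 against 6.88, and from 2500 to below 3500 bp 10.8 against 9.29. The mean difference in median log2 signal value within chromosomes was 0.18 (SD 0.25, positive on 17 of 22 chromosomes with at least 3 peaks of each group), 0.25 (SD 0.28, 17 of 21) and 0.24 (SD 0.29, 18 of 21), a ratio of 1.13 to 1.19. At 3500 bp or more the medians were 14.4 in 101 solitary and 14.9 in 1684 clustered enhancers, and the mean difference was -0.10 (SD 0.34, positive on 6 of 15). Each of these differences was smaller than its spread over chromosomes. The width classes were chosen after the values had been seen.

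**Figure D2:**
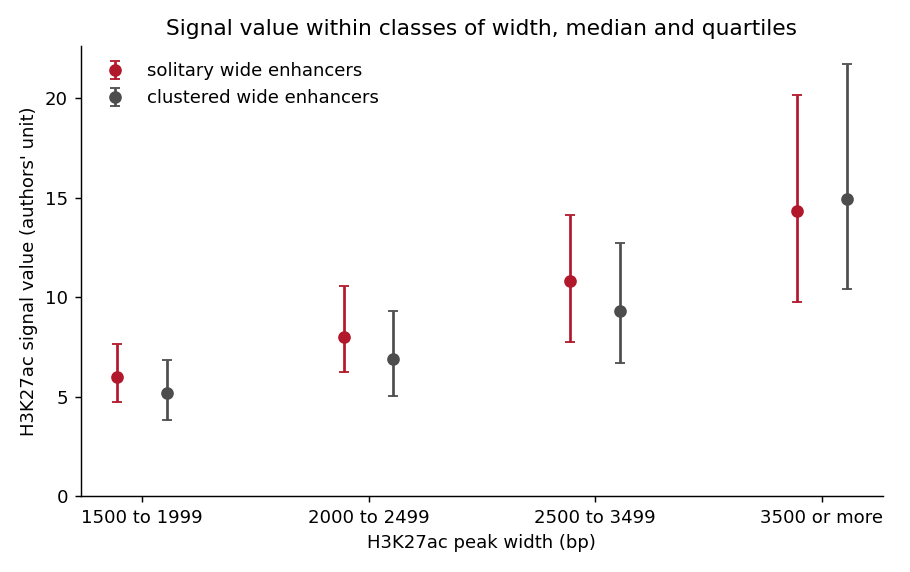
Median H3K27ac signal value (authors' unit; bars span the quartiles) of solitary (red) and clustered (grey) wide enhancers in 4 classes of peak width. The red median is above the grey one in the 3 narrower classes (5.97 against 5.19, 8.02 against 6.88, 10.8 against 9.29) and below it in the widest (14.4 against 14.9), and the bars overlap in each.

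H3K4me1, which had to touch each member, covered most of it. The median share of a member's bases inside H3K4me1 peaks was 91.8% (interquartile range 77.1 to 100), the lowest was 13.0%, and 63 members (6.96%) were covered over less than 50%. H3K4me1 peaks covered 266 members whole (29.4%, 26.5 to 32.4). A single H3K4me1 peak overlapped 551 members (60.9%), 2 peaks overlapped 280, 3 overlapped 60, and 4 or 5 overlapped the remaining 14 (12 and 2). H3K4me1 reached past both edges in 407 members (45.0%, 41.8 to 48.2), against 64.7% of all 39769 enhancer-like peaks, most of which are narrower. The median reach past the left edge was 88 bp (interquartile range -136 to 384, negative where H3K4me1 ended inside the member) and past the right edge 72 bp (-129 to 396). At the edge where H3K4me1 reached farther, the median was 270 bp.

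The H3K27ac summit lay inside an H3K4me1 peak in 867 of 905 members (95.8%, 94.3 to 96.9), near the 94.7% of all enhancer-like peaks. It was 97.5% (97.1 to 97.8) in clustered wide enhancers, and the within-chromosome difference was -1.59 percentage points (SD 3.57, positive on 10 of 23), smaller than its spread. With only the stronger 50% of each list it was -3.64 points, and 1 SD to each side spanned -7.10 to -0.18, so that there it was larger than its spread. In solitary wide promoter-like peaks the summit share was 15.9% (14.5 to 17.4). Unlike members, these peaks did not have to overlap H3K4me1, and 2131 of 2404 did, so the rule sets part of this contrast. H3K4me1 on the promoter-like peaks was more frequent to the sides, at 49.1% and 49.8% of positions 1000 bp from the summit. On members it was most frequent at the summit. Of the 38 members with a summit outside H3K4me1, 23 had H3K4me1 on both sides of the summit within the same stretch and 15 on 1 side only. Median H3K27ac signal values were 8.998 for the 23 and 5.79 for the 15.

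Over members, the signal value of the strongest overlapping H3K4me1 peak was 5.53 at the median (interquartile range 4.38 to 6.93), against 6.45 (5.05 to 8.23) on clustered wide enhancers. Within chromosomes the difference in median log2 value was -0.20 (SD 0.17), negative on 21 of 23, a ratio of 0.87. Within the 4 classes of width the mean difference was -0.18 to -0.09, in each class smaller than its spread over chromosomes. Peaks in the top 10% of the H3K4me1 list lay on 317 members (35.0%, 32.0 to 38.2). They lay on 31.7% of all enhancer-like peaks, most of which are narrower. The share was 52.5% (51.3 to 53.6) in clustered wide enhancers and 18.5% (17.2 to 19.9) in solitary narrow ones. Over members, H3K27ac and H3K4me1 signal values were only loosely related (rho 0.27 over 905 regions, a description).

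The 5 members with the highest H3K4me1 values were not those with the highest H3K27ac. The first lay on chromosome 6 from 43638337 to 43641619 (6p21.1), with an H3K4me1 signal value of 13.7 and an H3K27ac value of 13.4, and its H3K4me1 peak ran 4546 bp past the left edge. The next lay on chromosome 1 from 26880587 to 26884379 (1p36.11; 13.2 for H3K4me1 and 24.97 for H3K27ac). The third, on chromosome 16 from 85321976 to 85325865 (16q24.1), had 13.1 for H3K4me1 with an H3K27ac value of 7.57, below the median of the members, and H3K4me1 filled 51.2% of its flanks. The others lay on chromosome 9 from 119308545 to 119312648 (9q33.1; 12.7 and 24.9) and chromosome 1 from 237024511 to 237027939 (1q43; 12.7 and 9.76).

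In the 5 members with the strongest H3K27ac, the H3K4me1 peaks broke beside the summit. On 3q24 a gap of 160 bp ran from -464 to -304 bp relative to the summit, and on 1p36.13 a gap of 217 bp ran from -372 to -155 bp. On 11p15.2 the gap was 263 bp, on 3q28 293 bp, and on Xq21.31 it was 536 bp and began 113 bp to the right of the summit. The summit itself lay inside H3K4me1 in all 5. Over all members, 265 (29.3%, 26.4 to 32.3) had such a gap within 500 bp of the summit between H3K4me1 peaks that both overlapped the member, with a median length of 209 bp. The share went up with H3K27ac signal value, from 21.6% (16.7 to 27.4) in the lowest quartile to 39.4% (33.2 to 45.9) in the highest. In clustered wide enhancers within the same signal limits it went from 16.5% to 33.8%. Over all of them it was 23.6% (22.7 to 24.6), and the within-chromosome difference between the groups was 5.25 percentage points (SD 10.2, positive on 16 of 23), smaller than its spread. This measure was chosen after the 5 strongest members had been seen, and stronger members are also wider, with a median of 2938 bp in the highest quartile against 1741 bp in the lowest. The part of width in this share was not tested.

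**Figure D3:**
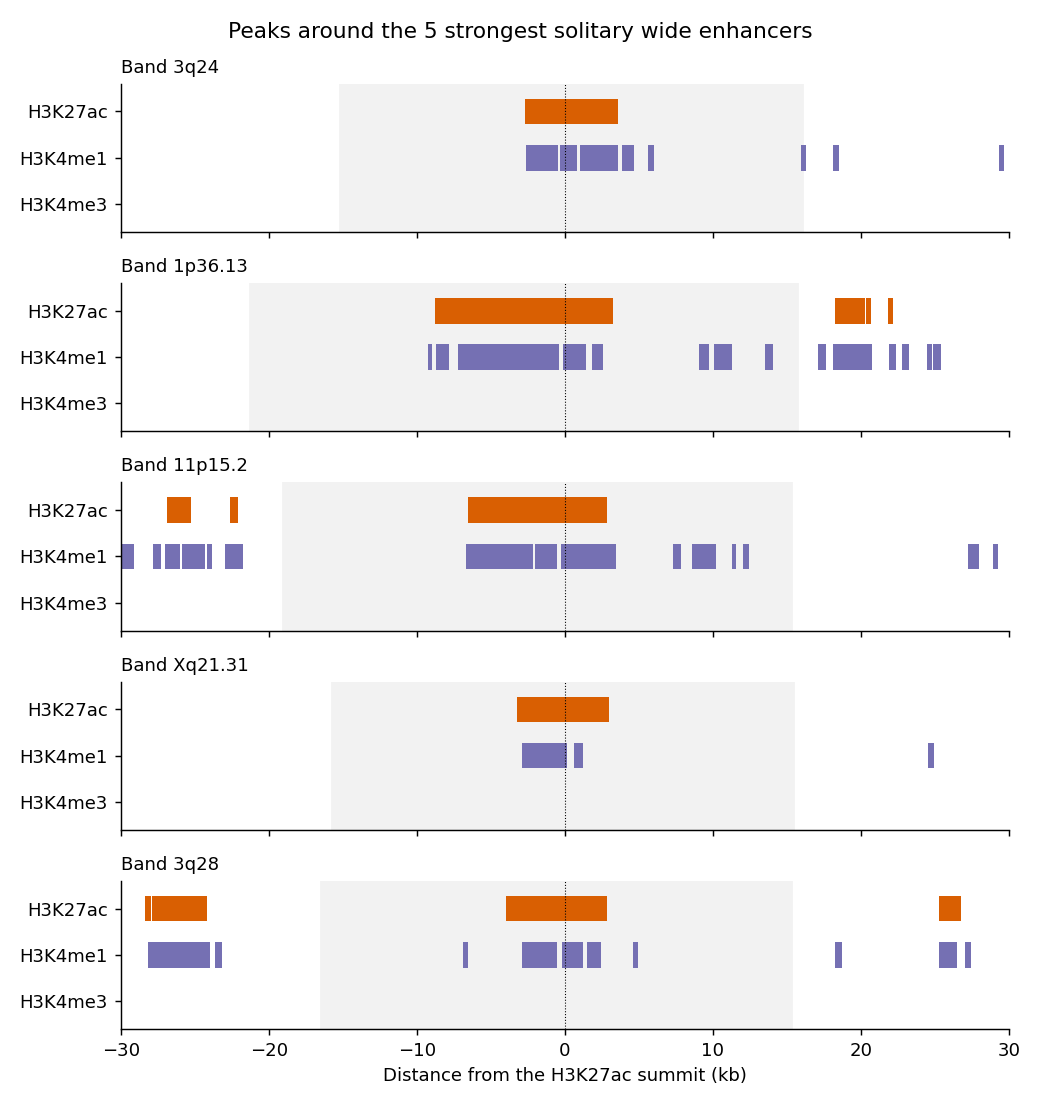
Deposited peaks of H3K27ac (orange), H3K4me1 (purple) and H3K4me3 (none within this range) within 30 kb of the H3K27ac summits (dotted line, distance in kb) of the 5 strongest solitary wide enhancers; grey shading spans the member and 12.5 kb to each side. Each member is 1 unbroken H3K27ac peak, while its H3K4me1 is split into 2 to 4 peaks with a gap close to the summit.

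H3K4me1 in the flanks, which the rule did not limit directly, was sparser around members than around clustered wide enhancers. Most members still had further H3K4me1 peaks there, with a median of 2. By rule members have no H3K27ac peak in the flanks and clustered wide enhancers have at least 1, so the rule sets part of this contrast. H3K4me1 peaks covered a median of 6.24% (interquartile range 2.15 to 12.8) of the 25 kb that flank a member, against 32.4% (18.4 to 49.1) around clustered wide enhancers. Leaving out flank bases inside H3K27ac peaks, the clustered median was 20.5%, and the within-chromosome difference was -14.1 percentage points (SD 3.44, positive on 0 of 23). H3K4me1 that ran past the edges of those H3K27ac peaks was still counted. Solitary narrow enhancers had 7.26% and solitary wide promoter-like peaks 9.40%, so sparse flanks were shared by all 3 solitary classes. In the genome as a whole H3K4me1 peaks covered 6.47% of bases, against a mean of 9.06% of the flanks of members. All of these flank shares include H3K4me1 peaks that overlap the region itself and run past its edges. At 5000 bp from the summits of members, 8.07% of positions to the left and 7.07% to the right lay inside H3K4me1. At 12.5 kb it was 5.75% and 6.41%. No further peak of H3K4me1 or H3K4me3 at all lay in the flanks of 206 members (22.8%, 20.1 to 25.6). The share was alike in solitary narrow enhancers, 23.3% (727 of 3126). It was 0.980% (71 of 7244) in clustered wide enhancers, whose flanks hold an H3K27ac peak by rule.

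By distance, the share of positions inside H3K4me1 fell from 95.8% at the summits of members to 65.0% at 1000 bp to the left and 64.6% to the right, to 22.1% and 23.1% at 2000 bp, and to 8.07% and 7.07% at 5000 bp. In clustered wide enhancers it was still 35.0% and 36.1% at 5000 bp, and 31.2% and 32.2% at 12.5 kb, where members had 5.75% and 6.41%. At 20000 bp, beyond the stretch that the rule kept free of H3K27ac, members had 11.4% and 11.7%, and solitary narrow enhancers 11.9% and 10.3%.

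**Figure D4:**
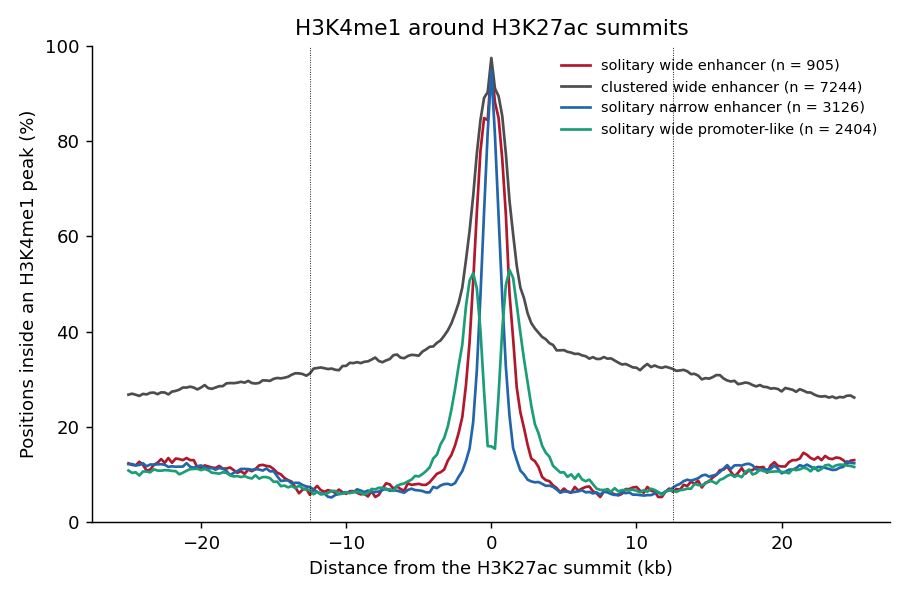
Share of positions (%) inside an H3K4me1 peak by distance (kb) from the H3K27ac summit, for solitary wide (red), clustered wide (grey) and solitary narrow (blue) enhancers and solitary wide promoter-like peaks (green); dotted lines mark 12.5 kb. The red line falls from 95.8% at the summit to 5.75% at the left dotted line, where the grey line is at 31.2%.

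The nearest H3K4me3 peak lay a median of 42411 bp from a member (interquartile range 24322 to 80800), against 14273.5 bp for clustered wide enhancers and 43393 bp for solitary narrow ones. No H3K4me3 peak with H3K27ac can lie inside the empty flanks, so the rule sets part of this distance. Within 12.5 kb, 35 members (3.87%, 2.79 to 5.33) had an H3K4me3 peak, necessarily 1 without H3K27ac in that stretch, and within 100000 bp 730 members did (80.7%).

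The nearer H3K27ac neighbour was a median of 24696 bp away and the farther one 62398.5 bp. It was an enhancer-like peak for 540 members (59.7%, 56.4 to 62.8), a promoter-like peak for 292 (32.3%, 29.3 to 35.4) and a peak with neither methylation for 73 (8.07%). Among all enhancer-like peaks 19.7% had a promoter-like nearest neighbour, and among clustered wide enhancers 14.9% (14.1 to 15.7). The within-chromosome difference from the latter was 20.0 percentage points (SD 10.8, positive on 23 of 23). By rule the nearest neighbour of a member lies beyond 12.5 kb and that of a clustered wide enhancer within it. The rule thus sets part of this contrast. Solitary narrow enhancers had 37.4% (35.7 to 39.1), so this too was common to solitary peaks. Members outranked their enhancer-like neighbours, with the higher signal value in 463 of 540 pairs (85.7%, 82.5 to 88.4), but exceeded a promoter-like neighbour in only 96 of 292 (32.9%, 27.7 to 38.5). The neighbours were not held to a minimum width, and the median enhancer-like one was 655 bp wide.

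A part of the members lay in long stretches without acetylation. The nearer neighbour was more than 50000 bp away for 194 members (21.4%), more than 100000 bp for 72 (7.96%) and more than 500000 bp for 14 (1.55%). The most isolated, on chromosome 14 from 29497270 to 29499005 (14q12), had its neighbours 1528 and 1937 kb away. It was 1736 bp wide, with a signal value of 13.2, higher than 82.7% of members, and 1 H3K4me1 peak covered it whole. The next lay on chromosome 2 from 22278537 to 22280370 (2p24.1), 937.3 kb from its nearer neighbour, with a value of 10.2 and no further H3K4me1 in its flanks. Those on chromosome 5 from 11594982 to 11598646 (5p15.2) and chromosome 9 from 76639666 to 76642047 (9q21.13) had nearer gaps of 832.9 and 750.2 kb and values of 13.3 and 10.6. The fifth, on chromosome 6 from 75243342 to 75246499 (6q13), combined a gap of 705.7 kb with a value of 32.5, higher than 98.9% of members. All 5 were thus above the median signal value of the members, although over all members the nearer gap and the signal value were unrelated in rank (rho 0.010, n = 905, a description).

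The 3 members farthest from any H3K4me3 peak were neighbours in a row on 2q22.3. They lay on chromosome 2 from 146534157 to 146535972, from 146557381 to 146559193 and from 146579489 to 146581579, with gaps of 21.4 and 20.3 kb between them. Their widths were 1816, 1813 and 2091 bp and their H3K27ac signal values 7.63, 7.05 and 5.82. The nearest H3K4me3 peak was 1108, 1131 and 1153 kb away. These 3 peaks were solitary by the rule and yet shared 1 neighbourhood. Of the 882 pairs of members next to each other on a chromosome, 37 were less than 50 kb apart and 49 had no other H3K27ac peak between them, while the median distance was 1737 kb.

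Members occurred on each of the 23 chromosomes, from 6 on chromosome 21 to 96 on chromosome 2, with 0.298 per Mb in all. Chromosome 20 had the most per Mb, 0.460, and chromosome 21 the fewest, 0.125. As a share of wide enhancers, solitary ones were lowest on chromosome 19 (14 of 288, 4.86%, 2.92 to 7.99) and highest on X (35 of 192, 18.2%, 13.4 to 24.3), a description of values that the gap rule used. Chromosome 19 had the densest H3K27ac, with 56.2 peaks per Mb, and X the sparsest, with 11.1. The part of peak density in the solitary share was not tested. Around members themselves, a median of 32 other H3K27ac peaks lay within 500 kb of the summit, against 52 around clustered wide enhancers. It was 31 around solitary narrow enhancers and 31 around solitary wide promoter-like peaks, so the lower count was common to solitary peaks. This window holds the flanks that the gap rule kept empty, so the rule sets part of this contrast. The p-value and the signal value did not rank chromosomes 20 and X alike. Members on chromosome 20 had a median −log10 p-value of 171.8 at a median signal value of 6.12, and those on X 104.9 at 9.74. Copy number was not analysed.

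**Figure D5:**
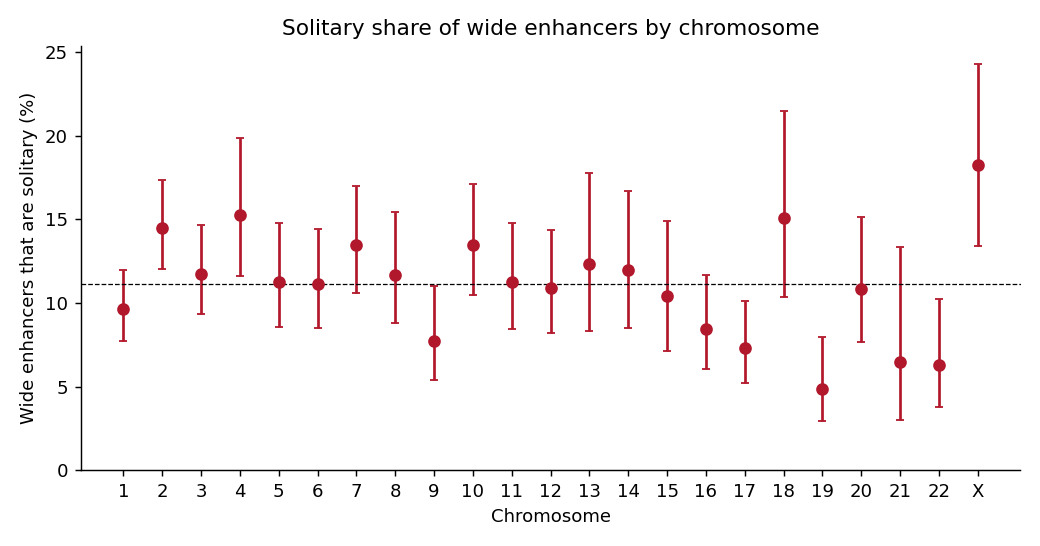
Share (%) of wide enhancers that were solitary on each chromosome, with 95% Wilson intervals; the dashed line is the share over all 23 chromosomes, 11.1%. Chromosome 19 is lowest at 4.86% and X highest at 18.2%.

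Darkly stained chromosome bands are known to be poor in genes and rich in A and T. The 2 darkest Giemsa classes held 204 of 905 summits (22.5%, 19.9 to 25.4), against 14.3% of all enhancer-like peaks and 13.8% (13.0 to 14.6) of clustered wide enhancers. They made up 29.8% of the length of these chromosomes and held 13.6% of all H3K27ac peaks. The gap rule selects for stretches with few H3K27ac peaks, and its part in the share of members was not tested. Within chromosomes the difference from clustered wide enhancers was 7.42 percentage points (SD 8.40, positive on 17 of 23), smaller than its spread. The shares in solitary narrow enhancers, 19.5% (18.2 to 20.9), and solitary wide promoter-like peaks, 18.1% (16.6 to 19.7), were also above that of clustered wide enhancers. The difference between wide and narrow solitary enhancers was 2.43 points (SD 8.22, positive on 10 of 23), smaller than its spread. The band with the most members was 2q35, with 10 of its 41 wide enhancers, followed by 3q28 with 8 of 20 and 6p22.3 with 7 of 32. In all, 457 of 851 bands held a member, and 18 bands held 5 or more.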

How the data were processed

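The 3 lists were deposited as peaks pooled over the libraries of each mark. The submitters' processing notes name MACS2 and hg19. Version, threshold and use of the controls are not given in the sources used here. Each deposited peak has the authors' signal value, whose reference is not stated, the −log10 of its p-value and q-value, and a score that was not used. Signal values were compared only within a list.

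No peak reached past the end of an hg19 chromosome, and positions are hg19, counted from 1. Regions overlapped where they shared at least 1 bp, and gaps were measured between edges. Bands came from the hg19 table of the R package circlize, with the 75 and 100 stain classes taken as dark. Differences were taken within chromosomes with at least 3 peaks of each group and averaged; no p-value was computed. Python 3.11.15, numpy 2.4.6, pandas 2.3.3 and scipy 1.17.1 were used, and the code was tested on simulated lists.

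Named regions were the 5 with the highest H3K27ac signal value, width, H3K4me1 value and nearer gap, the 3 farthest from H3K4me3, and up to 2 on each side of each threshold; the weakest member was added. The members and lists were chosen with earlier results of these data known. Planned sequence and gene results were not run, for want of an hg19 genome and annotation.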

Additional observations from a re-analysis of the deposited data

Results flagged for a closer look

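Chromosome Y was outside the set described above, and the lists hold H3K27ac peaks there. The same rule found 4 solitary wide enhancers among its 73 H3K27ac peaks, with signal values of 4.70 to 8.74 and widths of 1583 to 2933 bp, and 6 clustered wide enhancers. They drew attention as signal in data that no comparison used. No control values were analysed, so nothing is read from this count.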

How the results depend on the processing

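No paired analysis was possible because each list pools its 3 libraries, and for the same reason no library could be left out. Over 9 results, 94 alternative values were computed: 66 stayed within 1.5 times the count, the interval or 1 SD over chromosomes of the main value, and 28 moved further. Reversal of sign was looked for only in the differences under the 10 alternatives fixed at the start. Of these, 0 moved further with the opposite sign. The 4 width classes were added after the data had been seen. The number of members was 1420 and 509 with minimum widths of 1000 and 2000 bp, 1898 and 445 with gaps of 5000 and 25000 bp, 2578 in the stronger 50% of each list and 1942 with peaks joined within 1000 bp. Of the 905 members, 809 were among the 2578. The solitary share of wide enhancers was 9.44% at 2000 bp, 23.3% and 5.46% with the 2 gaps, 15.7% where peaks under a −log10 q-value of 5 were left out, 24.8% in the stronger 50% and 21.4% with joined peaks. Median H3K4me1 cover was 93.3% at 1000 bp, 93.2% and 89.1% with the 2 gaps, 93.2% where 50% cover was required and 100% with joined peaks. The summit share was 97.1% at 2000 bp, 89.9% in the stronger 50% and 97.5% where 50% cover was required. The median distance to H3K4me3 was 29.7 and 60.0 kb with the 2 gaps and 55.8 kb in the stronger 50%. The share in dark bands was 18.1% and 26.97% with the 2 gaps and 17.7% in the stronger 50%. The difference in log2 H3K27ac signal value was 0.25 and 0.24 in the 2 middle width classes. Both are counted as moved, and their sign was opposite to that of the main value, -0.00038. The lower H3K4me1 value of solitary enhancers kept its sign under each of the 10 alternatives fixed at the start, from -0.22 to -0.16. Depth and the spread between cultures are unknown.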
